A study of Mus musculus with 3 samples.

Results

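The immediate early genes Egr1, Egr2, Ier2, Ier3, Ier5, Klf6, Rhob, Zfp36, Dusp1 and Nr4a1 were followed in mouse blastocysts that lay dormant in the uterus and in blastocysts called back to growth. These 10 genes, fixed by name, are among the 31510 genes of each deposited table, 9 of them found by symbol and Egr2 by its Ensembl identifier, which has no symbol there. All blastocysts came from CD-1 mothers, 2 months old, whose ovaries were removed on the morning of day 4 of pregnancy and who were given 2 mg of progesterone per mouse on each of days 5 to 7. Dormant blastocysts were flushed from the uterus on the morning of day 8 with no estradiol (E2). Mothers of the other groups also received E2 on day 7 and were killed 6 h later (reactivating) or 12 h later (reactivated). The E2 dose is not given in the sources used here. Each state was 1 library from a pool of more than 3000 blastocysts, so that differences between states have no replicate check and no p-value. Hour after E2, day and hour of collection and library changed together and cannot be told apart.

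Immediate early genes are transcribed within minutes of a signal from outside the cell, without new protein synthesis, and their short-lived mRNAs are soon lost again. Kinases such as ERK act on the factor SRF and its ETS partners, which bind the CArG box, and on CREB, which binds the CRE, and these elements lie close to the start sites of many such genes. The products include transcription factors of the next wave (EGR, KLF6, NR4A1), regulators of signalling and RNA decay that limit the response (DUSP1, ZFP36), and a small GTPase (RHOB). In a pool of whole embryos fewer cells of a type and less RNA per cell cannot be told apart.

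The libraries held 9298675 exon reads in the dormant, 10364607 in the reactivating and 12941447 in the reactivated state, and between 11089 and 11535 genes reached 1 RPKM (reads per kb of exon and per 1000000 reads). Embryo markers were present, with all 8 trophectoderm, 4 inner cell mass and 4 primitive endoderm markers at 1 RPKM or more in each library. The red blood cell markers stayed below 1 RPKM, and 5 of 8 uterine epithelium markers (Ltf, Pgr, Esr1, Calb1 and Ihh) did so too. The marker sums that moved are given beside the results.

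The sequences before the start sites of 4 members are shown because these genes took different courses: Rhob and Zfp36 passed the size rule as lower by 12 h, Nr4a1 was lower without passing it, and Dusp1 was highest at 12 h. Each is the 250 bases before the start annotated by RefSeq (GRCm38.p6), read 5′ to 3′ along the gene, with matches to the searched motifs in capitals. The windows are chr12:8500010-8500259 (minus strand) for Rhob, chr7:28379229-28379478 (minus) for Zfp36, chr15:101266596-101266845 (plus) for Nr4a1 and chr17:26508473-26508722 (minus) for Dusp1.
Rhob: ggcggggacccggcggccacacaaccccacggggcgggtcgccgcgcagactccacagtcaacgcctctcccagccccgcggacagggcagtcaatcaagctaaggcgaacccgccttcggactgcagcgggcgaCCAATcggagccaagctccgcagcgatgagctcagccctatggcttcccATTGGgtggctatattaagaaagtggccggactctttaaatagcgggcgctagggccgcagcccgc
Zfp36: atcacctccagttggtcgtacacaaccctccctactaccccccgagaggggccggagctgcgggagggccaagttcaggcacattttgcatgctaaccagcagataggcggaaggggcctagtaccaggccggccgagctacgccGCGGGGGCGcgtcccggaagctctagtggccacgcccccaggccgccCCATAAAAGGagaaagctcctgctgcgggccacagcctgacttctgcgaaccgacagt
Nr4a1: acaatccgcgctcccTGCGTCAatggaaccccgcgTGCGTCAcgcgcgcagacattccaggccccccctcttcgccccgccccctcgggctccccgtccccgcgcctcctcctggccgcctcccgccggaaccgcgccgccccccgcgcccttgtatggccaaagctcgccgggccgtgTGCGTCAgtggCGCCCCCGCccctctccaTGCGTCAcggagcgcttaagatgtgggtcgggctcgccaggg
Dusp1: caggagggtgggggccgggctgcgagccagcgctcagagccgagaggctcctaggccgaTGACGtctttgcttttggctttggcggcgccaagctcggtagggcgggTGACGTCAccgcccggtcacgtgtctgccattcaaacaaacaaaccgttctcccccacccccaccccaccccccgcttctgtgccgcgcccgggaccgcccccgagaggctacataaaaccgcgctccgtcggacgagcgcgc

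The motifs were searched on both strands in these windows and in the 32851 windows of the same length in the RefSeq table, where a gene can have several. Zfp36 held a CArG box at positions -58 to -49 from the start and an EGR site, GCGGGGGCG, at -105 to -97. A CArG box was in 1.47% of all windows and GCGGGGGCG in 2.57%. Nr4a1 held TGCGTCA 4 times, a form of the CRE present in 1.75% of windows, and 1 EGR site on the opposite strand. Dusp1 held a full CRE, TGACGTCA, at -143 to -136 (1.55% of windows) and the core TGACG also at -191 to -187 (17.8% of windows). The core lies within the full CRE and, on the opposite strand, overlaps TGCGTCA. Rhob held CCAAT once on each strand, a motif of 33.8% of windows, and none of the others. Windows were at hand for 8 members, Egr1 and Ier2 not among them. TGANTCA (6.75% of windows) and GCGTGGGCG (0.536%) matched in none of the 8, and Egr2 held a CArG box before most of its annotated starts. A match describes the letters only.

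At 6 h after E2 none of the members had passed the size rule, and by 12 h 3 had fallen, Rhob, Zfp36 and Egr1. Relative to genes of like GC content only Rhob passed at 12 h against dormant, where the share of all genes passing was not counted. The size rule asks for a log2 difference of at least 1 between RPKM + 1 of both libraries and for at least 1 RPKM in the higher one, a scale that understates the change of low genes. Of the 10 members, 8 reached 1 RPKM in at least 1 library of each comparison, while Egr2 and Ier5 stayed below it. Of these 8, 3 were lower and none higher at 12 h against dormant, where 7.66% of the 12037 genes tested were lower and 5.27% higher. Members and the lists below were chosen with earlier results of these data known, so such counts describe and do not test. Among protein-coding genes alone 5.53% were lower and 3.63% higher. Counting intervals were apart for 7 of the 8, 6 lower and Dusp1 higher, against 31.6% of all tested genes lower and 24.5% higher. Of all genes past the rule 59.3% were lower, and this share was 48.1% after upper-quartile and 50.5% after median-ratio scaling. The median log2 difference of the 8 members was -0.76, beside -0.07 over all genes tested, and 7 of the 8 were below 0, as were 54.7% of all genes tested.

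**Figure D1:**
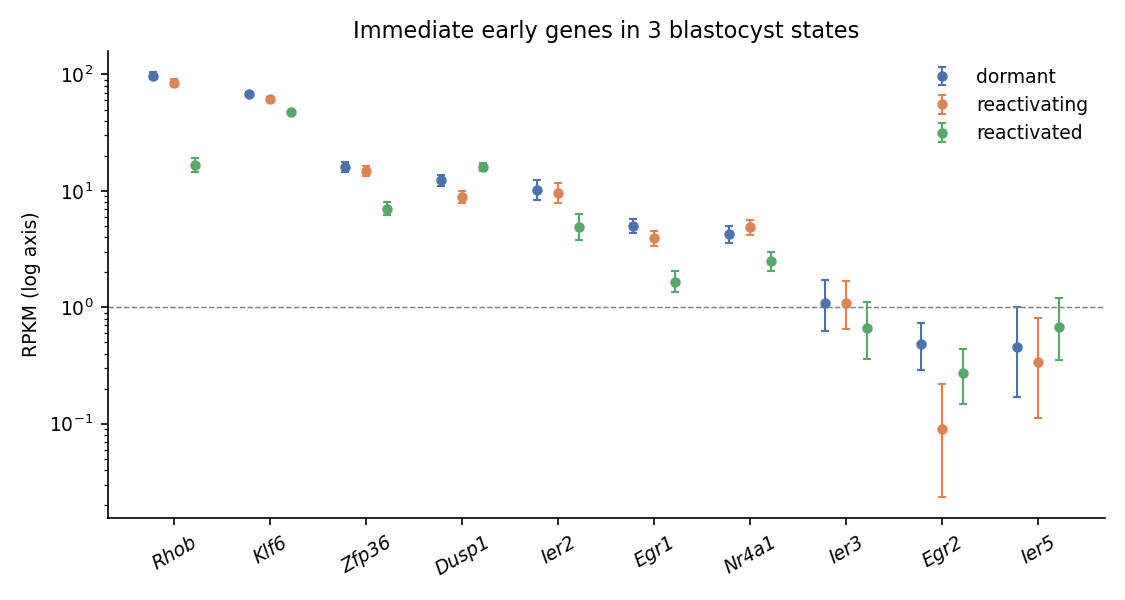
RPKM of the 10 genes (log axis) in the dormant, reactivating and reactivated libraries, 1 library each, with exact 95% Poisson intervals of the exon reads; the dashed line marks 1 RPKM. Rhob stood at 97.9, 84.8 and 16.7 RPKM in the 3 states, and Dusp1 was the only gene above 1 RPKM whose reactivated value lay above both others.

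Rhob, the GTPase that regulates endosome traffic and the actin cytoskeleton (ENSMUSG00000054364, GRCm38 chromosome 12, 8497661 to 8500009, minus strand), was at 97.9 RPKM in dormant blastocysts (817 exon reads, 95% Poisson interval 91.3 to 105), 84.8 in reactivating (79.0 to 90.9) and 16.7 in reactivated ones (187 reads, 14.4 to 19.2). The dormant value was the highest, the 6 h value lay a little below it with a separate interval, and the 12 h value was far below both. The dormant level was 5.87 times the reactivated one (exact binomial interval 5.01 to 6.92), a log2 difference of -2.48. Between 6 h and 12 h the ratio was 5.09 (4.33 to 6.00), so that almost the whole fall came after 6 h.

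Zfp36 encodes tristetraprolin, which binds AU-rich elements in mRNAs and brings about their decay (ENSMUSG00000044786, chromosome 7, 28376784 to 28380253, minus strand). Its level was 16.01 RPKM in dormant (14.5 to 17.7), 14.9 at 6 h (13.5 to 16.5) and 7.04 at 12 h (6.17 to 8.0). The intervals of the earlier states overlapped, and both lay above the reactivated one. The log2 difference at 12 h was -1.08, with a dormant to reactivated ratio of 2.27 (1.93 to 2.68), and it fell short of the rule at -0.98 with upper-quartile scaling and at -0.84 relative to genes of like GC content. Against reactivating it was -0.99. Its paralogs stood lower without passing, Zfp36l1 at 6.17 and 3.51 RPKM in dormant and reactivated blastocysts and Zfp36l2 at 8.39 and 6.06.

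Egr1, a zinc finger transcription factor that growth factors induce through ERK and SRF (ENSMUSG00000038418, chromosome 18, 34859823 to 34864984, plus strand), was at 5.03 RPKM in dormant (218 reads, 4.38 to 5.74), 3.92 at 6 h (189 reads, 3.38 to 4.52) and 1.66 at 12 h (97 reads, 1.35 to 2.03). The reactivated value lay below both others, whose intervals overlapped. At 12 h the log2 difference was -1.18 and the dormant to reactivated ratio 3.02 (2.37 to 3.88). Relative to genes of like GC content the difference was -0.89, short of the rule. Egr2, which patterns the hindbrain and drives myelination, had 20, 4 and 15 exon reads, or 0.48, 0.09 and 0.27 RPKM, too low for the rule in each state, although its reactivating interval (0.0234 to 0.220) lay below the dormant one (0.292 to 0.738). In the reactivating library 13 reads lay on the strand opposite to Egr2, more than its own 4. Egr3 and Egr4 had at most 6 reads in a library, so that of this family Egr1 was the one measured above 1 RPKM.

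The IER genes encode small proteins with no enzyme activity of their own, and only Ier2 was well measured. Ier2 (chromosome 8, 84661331 to 84662852, minus strand) was at 10.2 RPKM in dormant (8.27 to 12.5), 9.67 at 6 h (7.87 to 11.7) and 4.90 at 12 h (3.76 to 6.29). Its reactivated interval was apart from both others, and its log2 difference from dormant was -0.93, just outside the rule, while Zfp36 at -1.08 was just inside. With a pseudocount of 0.1 in place of 1 it was -1.04. That setting also made 1630 of the 12037 genes tested lower, beside 922 with the main rule. Ier3, an inhibitor of cell death (chromosome 17, 35821684 to 35822923), had 17, 19 and 14 reads, that is 1.08, 1.08 and 0.66 RPKM with overlapping intervals. Ier5, which acts on the heat shock factor HSF1 (chromosome 1, 155096361 to 155099636), had 6, 5 and 12 reads (0.46, 0.34 and 0.68 RPKM), and in the reactivated library a further 8 reads lay on its opposite strand. No difference was detectable for either gene at this depth. The interval of the dormant to reactivated ratio ran from 0.757 to 3.58 for Ier3 and from 0.207 to 1.94 for Ier5.

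Klf6, a Krüppel-like factor of early development and epithelial differentiation (ENSMUSG00000000078, chromosome 13, 5861482 to 5870394, plus strand), had the most reads of the members. It was at 68.5 RPKM in dormant (66.4 to 70.6), 61.6 at 6 h (59.8 to 63.6) and 47.3 at 12 h (45.8 to 48.8), 3 values with separate intervals. The log2 difference at 12 h was -0.52, a dormant to reactivated ratio of 1.45 (1.38 to 1.51), short of the size rule. Nr4a1, an orphan nuclear receptor (chromosome 15, 101254269 to 101274795, plus strand), was at 4.25 RPKM in dormant (3.59 to 4.99), 4.86 at 6 h (4.19 to 5.60) and 2.5 at 12 h (2.07 to 2.99). Only its reactivated value stood apart, with log2 differences of -0.58 from dormant and -0.74 from reactivating. Its relatives Nr4a2 and Nr4a3 had at most 8 reads in a library.

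Dusp1, the nuclear phosphatase that switches off MAP kinases (ENSMUSG00000024190, chromosome 17, 26505590 to 26562128, minus strand), took another course. It was at 12.4 RPKM in dormant (339 reads, 11.1 to 13.8), 8.88 at 6 h (270 reads) and 16.2 at 12 h (595 reads, 14.9 to 17.5). The 3 intervals did not overlap, and the lowest value was at 6 h. The reactivated level was 1.31 times the dormant one (1.14 to 1.5) and 1.82 times the reactivating one (1.57 to 2.11), with log2 differences of 0.36 and 0.80 that did not pass. In the list of 9 related phosphatases none passed in any comparison. Dusp4, an ERK phosphatase of the feedback list, fell from 26.2 RPKM in dormant and 24.7 in reactivating to 10.4 in reactivated blastocysts, and Dusp6, the cytoplasmic ERK phosphatase, was at 50.9, 57.2 and 52.6 RPKM.

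The order of the members by RPKM changed between the states. Within a state it also depends on exon length, which holds coding bases only for Rhob, Ier2 and Ier5. The intervals do not cover this. In dormant blastocysts Rhob was above Klf6, followed by Zfp36, Dusp1, Ier2, Egr1, Nr4a1, Ier3, Egr2 and Ier5. Within that order the intervals overlapped for Dusp1 and Ier2, for Egr1 and Nr4a1, for Ier3 and Egr2, and for Egr2 and Ier5. In reactivated blastocysts Klf6 was highest at 47.3 RPKM, Rhob and Dusp1 could not be separated at 16.7 and 16.2, Zfp36 and Ier2 overlapped, and Nr4a1 was above Egr1. Among genes at 1 RPKM or more, Rhob went from above 96.3% of them in dormant to above 76.0% in reactivated blastocysts, Egr1 from 39.1% to 11.2%, and Dusp1 from 68.7% to 75.3%. The exon reads of all 10 genes together came to 435 RPM (reads per 1000000) in dormant (424 to 446), 386 at 6 h (376 to 396) and 270 at 12 h (262 to 277), with Klf6 contributing 66.4%, 67.4% and 73.9% of them and Rhob 13.3%, 13% and 3.65%. These sums are weighted by transcript length.

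**Figure D2:**
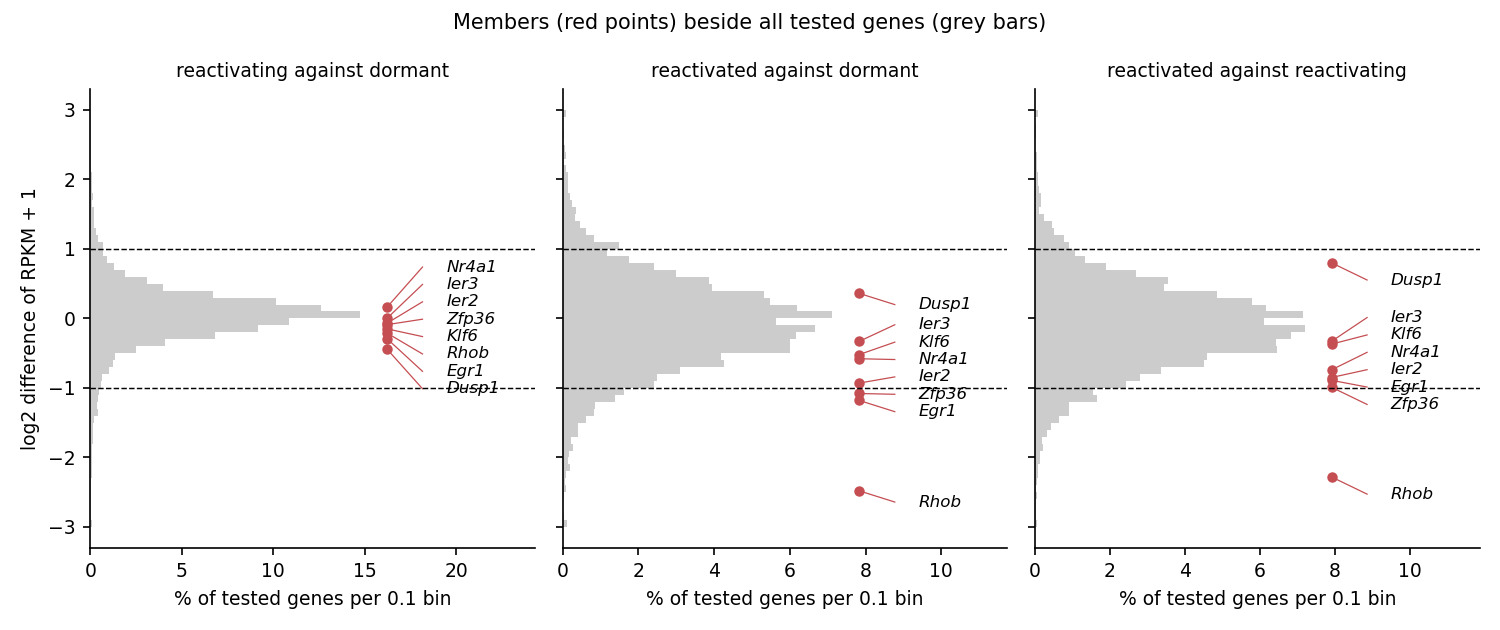
Log2 differences of RPKM + 1 for the 8 members at 1 RPKM or more (red points) in each comparison, beside all tested genes (grey bars, % of genes per bin, values beyond 3 in size put in the end bins); dashed lines mark the size rule. The points lie between -0.44 and 0.16 at 6 h and between -2.48 and 0.36 at 12 h against dormant.

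The 6 h comparison set the reactivating library against the dormant one, with E2, time of collection and library differing together. An earlier rise that was already lost by 6 h would not show in it. The 8 members lay between -0.44 (Dusp1) and 0.16 (Nr4a1) on the log2 scale, with 6 below 0 and a median of -0.12 beside 0.06 over all genes tested. None passed the size rule, which 3.07% of the 12126 genes tested passed as lower and 2.68% as higher, 5.75% together. Of protein-coding genes 0.291% were lower and 0.683% higher. Counting intervals were apart for 3 of the 8, Klf6, Rhob and Dusp1, all lower, against 10.7% of all tested genes lower and 19.1% higher by the same criterion. The dormant to reactivating ratios of these genes were small, 1.11 for Klf6 (1.06 to 1.16), 1.15 for Rhob (1.05 to 1.28) and 1.40 for Dusp1 (1.19 to 1.64).

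The comparison of reactivated with reactivating blastocysts asked what changed between 6 h and 12 h. Rhob alone passed the rule, as lower, where 7.63% of the 12065 genes tested were lower and 3.82% higher, 11.4% together. Of protein-coding genes 6.60% were lower and 2.44% higher. Counting intervals were apart as lower for 6 of the 8 members and as higher for Dusp1, against 34.5% and 21.1% of all tested genes. Among all changed genes 66.6% were lower, but 47.3% after upper-quartile and 50.4% after median-ratio scaling, as the median over all tested genes went from -0.13 to 0.04 and 0.01. Zfp36 at -0.99, Egr1 at -0.89, Ier2 at -0.85 and Nr4a1 at -0.74 did not reach the rule, though their intervals were apart from the reactivating ones. With the pseudocount of 0.1, or with RPM in place of RPKM, 3 members passed, Egr1, Rhob and Zfp36. More genes were lower under these settings too, 1618 of 12065 and 1462 of 12612, beside 920 of 12065 with the main rule. The member median was -0.80 with the deposited RPKM, -0.67 with median-ratio scaling and -0.45 relative to genes of like GC content. The comparisons share libraries and are not independent of each other.

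The base composition of genes moved with the reactivated library, and the members are rich in G and C. Among protein-coding genes the median log2 difference of reactivated against dormant went from 0.15 in the lowest of 4 equal groups by GC content to -0.30 in the highest, while at 6 h the medians were 0.04 and 0.08. The longest coding transcripts of the members had 42.4% (Klf6) to 60.9% (Ier2) GC, with Rhob at 56.1%, Egr1 at 57.3% and Zfp36 at 54.1%. Relative to protein-coding genes of like GC content, Rhob was at -2.25 against dormant, Egr1 at -0.89 and Zfp36 at -0.84, so that Rhob alone still passed. Dusp1 was at 0.60 against dormant and at 1.08 against reactivating on this scale, past the rule in the latter. How many of all genes pass the rule on this scale was not counted. Klf6, the one member low in GC, went from -0.52 to -0.68. Of the 8 members 7 stayed below 0, with a median of -0.64.

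**Figure D3:**
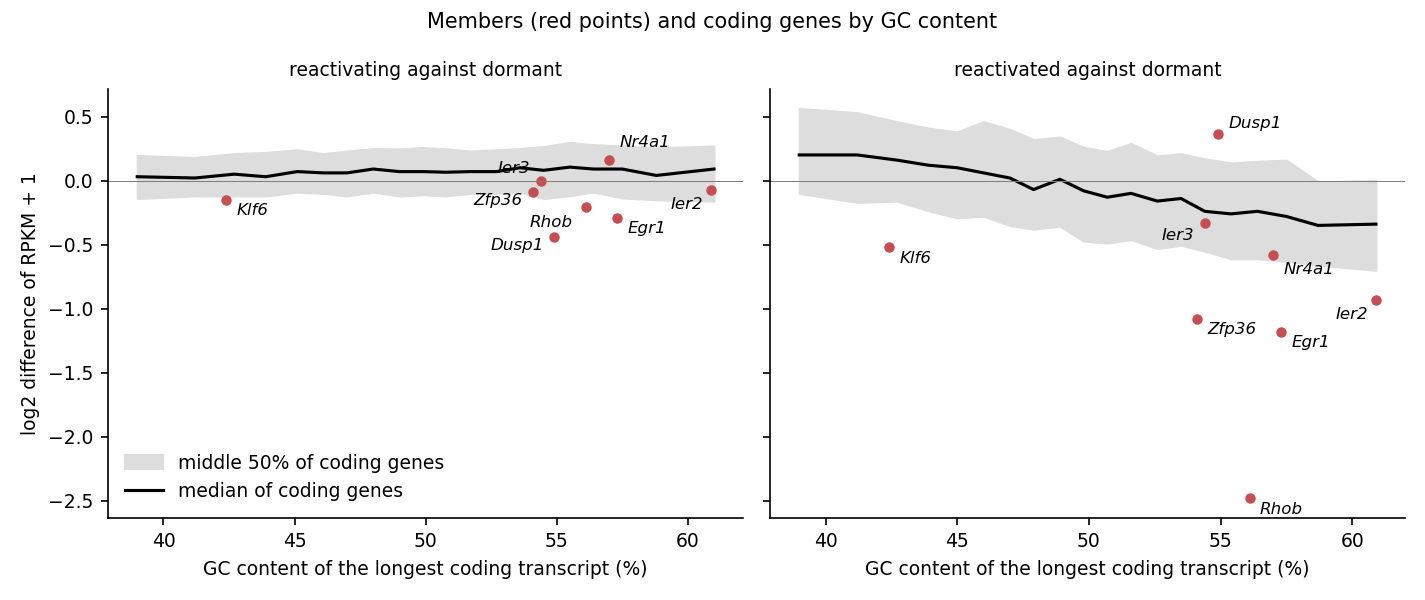
Log2 difference of RPKM + 1 against the GC content of the longest coding transcript (%) for the 8 members at 1 RPKM or more (red points), with the median (line) and middle 50% (grey band) of protein-coding genes in bins of GC content. At 12 h the line falls with GC content, and Rhob, Zfp36, Egr1, Ier2 and Klf6 lie below the band, Nr4a1 and Ier3 within it and Dusp1 above it.

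The summed markers of immune, uterine and trophectoderm cells were also lowest at 12 h. The 7 immune cell markers summed to 22.8 RPKM in dormant, 16.4 at 6 h and 7.15 at 12 h, most of it Laptm5 at 13.7, 11.5 and 4.11. Cd68 was at 3.61, 1.47 and 1.72 RPKM and Cd14 at 2.97, 1.54 and 0.540. In the 3 states 4, 3 and 2 of these markers were at 1 RPKM. Ptprc, Lyz2 and Csf1r were below it throughout, and Tyrobp was at 0 in the reactivated library. The 8 uterine epithelium markers summed to 36.9, 39.5 and 19.9 RPKM, most of it Wfdc2 at 30.1, 32.7 and 13.4. The list did not move as one: Muc1 was at 3.61, 3.11 and 1.56 RPKM, but Foxa2 was highest at 12 h, at 1.82, 1.84 and 3.60. Below 1 RPKM, Ltf had 11, 39 and 49 reads and Ihh 25, 18 and 9. The 7 stromal markers summed to 4.24, 3.83 and 1.28 RPKM, with Col3a1 the highest of them at 2.39, 1.73 and 0.710. Hand2 had 1, 17 and 0 reads. Trophectoderm markers summed to 1230, 1210 and 951 RPKM, with Krt18 alone at 807, 834 and 624. Within that list Cdx2 (113, 95.8 and 34.8 RPKM) and Gata3 (48.0, 42.5 and 21.1) fell by 12 h, Elf5 rose (30.1, 30.5 and 81.3), and Eomes was at 87.9, 73.4 and 81.9. Inner cell mass markers summed to 122, 169 and 161 RPKM and primitive endoderm markers to 58.4, 54.6 and 44.4. The part of these cell types in the levels of the members was not tested.

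Intron reads, which come largely from unspliced RNA, were counted apart from exon reads and gave a second view of 5 members with enough reads. Zfp36 had 1 intron read in dormant, 22 at 6 h and 13 at 12 h, beside 399, 414 and 236 exon reads. The dormant share stood alone: introns made up 0.250% of its reads there (exact binomial interval 0.00633 to 1.38%), 5.05% in reactivating (3.19 to 7.54%) and 5.22% in reactivated ones (2.81 to 8.76%). Among 7823 genes with an intron and at least 90 exon reads in both libraries, 6.34% had a share higher in reactivating than in dormant with intervals apart, and 9.12% of 7623 genes in reactivated. The median share over these genes went the other way, from 24.3% to 23.0% at 6 h. An antisense gene, Gm44710, overlaps Zfp36 in GENCODE M21. The tables count reads of the opposite strand separately, and these were 7, 8 and 1 for Zfp36.

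Klf6 intron reads were 426, 493 and 353, or 9.46%, 10.8% and 8.53% of its reads, and the reactivated share (7.69 to 9.42%) was apart from the reactivating one (9.90 to 11.7%). Lower shares with intervals apart were seen in 16.4% of 7824 genes in that comparison. The Klf6 introns were at 30.2, 31.4 and 18.6 RPM, so that intron and exon reads were both lowest at 12 h. The remaining members showed no separate intervals. Nr4a1 had 12.9%, 16.4% and 18.8%, Dusp1 7.12%, 8.78% and 4.65%, and Egr1 0.909%, 4.06% and 2.02% with 2, 8 and 2 intron reads. Dusp1 intron reads were 26, 26 and 29 while its exon reads were 339, 270 and 595. Ier2, Ier5 and Rhob have no intron in the tables.

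**Figure D4:**
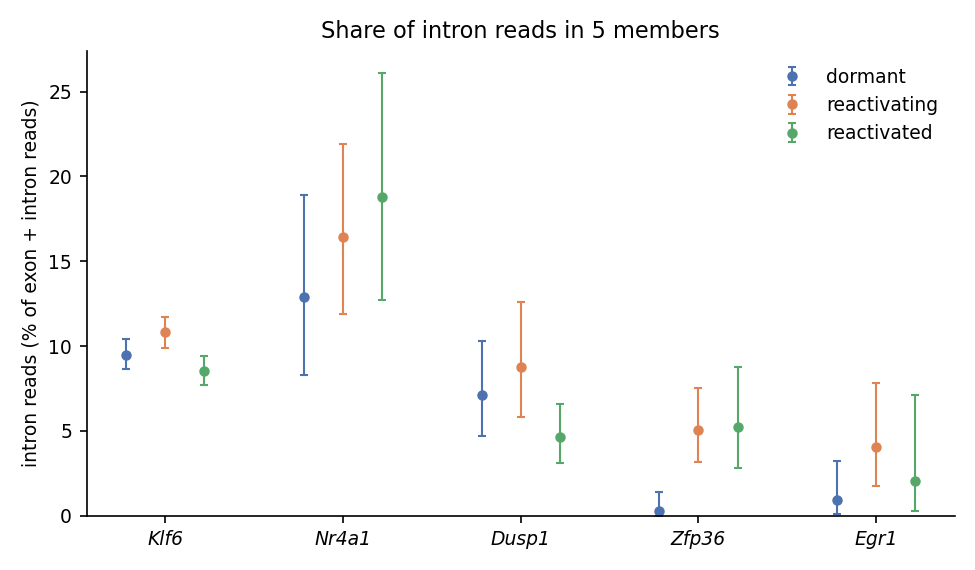
Intron share (%) of exon plus intron reads in each of the 3 libraries for the 5 members with an intron and at least 90 exon reads, with exact 95% binomial intervals. The Zfp36 interval in dormant blastocysts ends at 1.38%, below those of the other states, which start at 3.19% and 2.81%.

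AU-rich elements, through which tristetraprolin acts, differ among the members and are shown for those that hold its core heptamer TATTTAT. In the longest coding transcripts of GENCODE M21, searched on the transcript strand only, the 3′ untranslated region held it 4 times in Ier3, 3 times in Zfp36, 3 times in Dusp1 and 2 times in Klf6. It was in 27.5% of the 20969 genes with such a region, and in 16.1%, 19.6%, 18.9% and 54.5% of those within 20% of the length of these 4 regions. The other 6 members held none, Rhob, Egr1 and Ier2 among them. The 30 bases around the heptamer nearest to the stop codon lie at chr17:35822489-35822518 (plus strand), chr7:28376957-28376986 (minus), chr17:26506150-26506179 (minus) and chr13:5868498-5868527 (plus), with the heptamer in capitals.
Ier3: taaTATTTATgTATTTATgtatatcctcct
Zfp36: cttTATTTATgacgacttTATTTATtgtat
Dusp1: cctTATTTATttaacacccccctcaccccc
Klf6: tctTATTTATgccttgaggactatttctgg

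The heptamer is a narrow form of AU-rich element. The shorter ATTTA, which lies within it, was found 3 times in Zfp36 and 4 times in Dusp1. It was also found 4 times in Rhob and 2 times in Egr1, which lack the heptamer. How common ATTTA is in other genes was not counted. The part of either motif in the levels of the members was not tested. Among cytokines and enzymes known as tristetraprolin targets 3 of 10 were measured. Lif (35.8, 34.0 and 9.55 RPKM) and Il6 (19.5, 12.9 and 6.10) fell by 12 h, with a median of -1.53 over the 3. Beside this, 7.66% of all genes tested were lower and their median was -0.07. Of 17 measured genes of AU-rich element binding and mRNA decay only Elavl1, which encodes the stabilising protein HuR, passed, rising from 32.3 to 68.7 RPKM, and the list median was -0.28. With 5.27% of all genes tested higher, 1 of 17 is near the background.

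Other immediate early genes gave both directions. Of 23 measured at 12 h against dormant, 4 fell and 1 rose, with a median of -0.51. Over all genes tested in this comparison 7.66% were lower and 5.27% higher, with a median of -0.07. The kinase gene Pim1 fell from 14.6 to 4.62 RPKM and Klf2 from 7.45 to 2.12, while Plk3, a stress kinase, was at 5.22, 3.11 and 14.8 RPKM in the 3 states and rose in both comparisons with the reactivated library. The antiproliferative gene Btg2 fell from 27.9 RPKM at 6 h to 8.78. Mcl1 and Myc, also on this list, were at 33.5, 40.8 and 40.5 and at 14.2, 11.3 and 15.3 RPKM and did not pass. Of 10 measured AP-1 genes 4 fell and none rose (median -0.66), with Fos at 51.0 RPKM at 6 h and 17.6 at 12 h, Junb at 42.4 and 12.5 and Jund at 63.1 and 22.

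Of 24 measured genes of the ERK, SRF and CREB pathways 2 fell by 12 h and none rose, with a median of -0.02 beside -0.07 over all genes tested. That share is near the 7.66% of all genes tested that were lower, so the count says nothing about the list. These were Mkl1, a coactivator of SRF that senses actin (6.29, 4.22 and 1.40 RPKM), and Elk1, an ETS partner of SRF (6.63, 7.88 and 2.71). Srf itself was at 14.6, 16.1 and 19.9 RPKM. In the list of ERK feedback regulators and EGR corepressors 2 of 10 fell, Dusp4 and the ERK inhibitor Spry2 (29.1, 32.1 and 13.8 RPKM), and the corepressor Nab1 was at 6.01, 6.21 and 4.81. Of 12 measured relatives of Klf6 and Nr4a1 4 fell (median -0.64), led by Klf15 (14.4, 15.5 and 3.42 RPKM) and Klf3 (17.9, 14.4 and 5.71), with the retinoid receptor gene Rxrb at 19.2, 17.5 and 8.66. None of these lists had a member past the rule at 6 h, where 3.07% of all genes tested were lower and 2.68% higher. Of protein-coding genes 0.291% were lower and 0.683% higher, so the absence of calls is near the background.

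**Figure D5:**
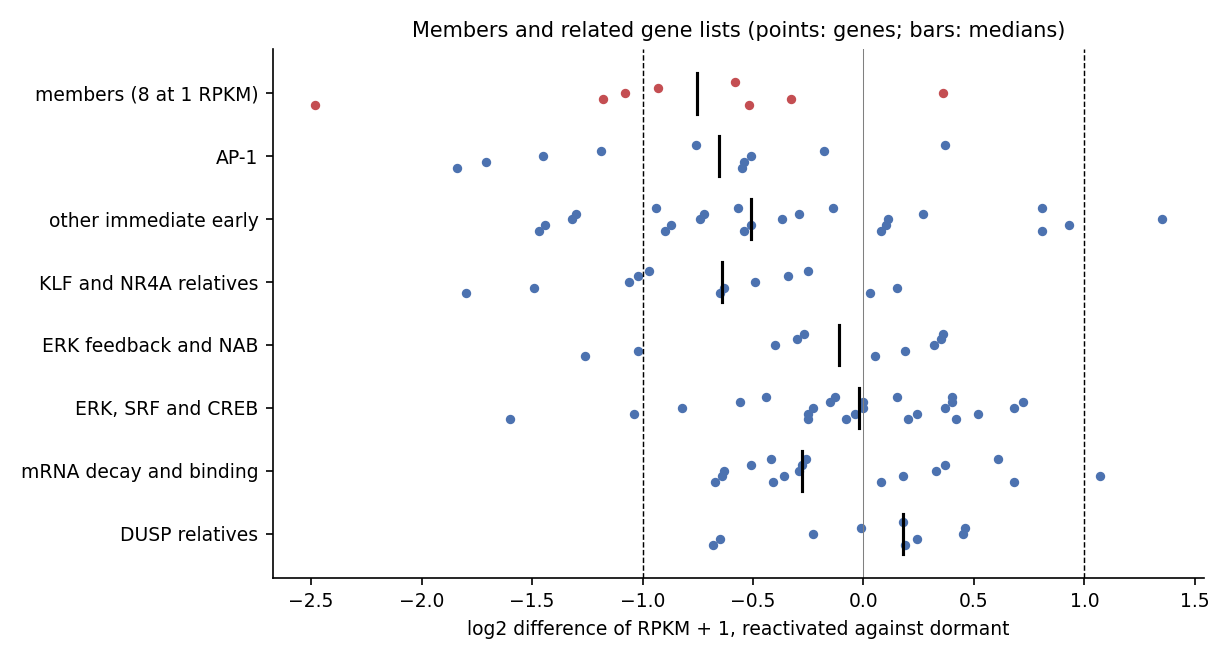
Log2 difference of RPKM + 1, reactivated against dormant, for members (red) and genes of 7 related lists (blue) at 1 RPKM or more, with list medians (black bars) and the size rule (dashed lines). Among the lists drawn the medians run from -0.76 for the members and -0.66 for AP-1 genes to 0.18 for DUSP relatives; the 3 measured tristetraprolin targets (median -1.53) are not drawn.

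The genes with the course most like that of the members were found among 4525 genes at 10 RPKM or more. Likeness was the distance over both log2 differences from dormant, over 3 libraries, to the median of the 6 members that reached 5 RPKM (-0.18 at 6 h and -1.0 at 12 h). The nearest 5 were AI464131 (13.5, 11.6 and 6.24 RPKM), the chromatin reader Trim24 (27.3, 24.2 and 13.5), B3gat3, an enzyme of proteoglycan synthesis (21.6, 18.9 and 10.5), the autophagy protease Atg4d (28.7, 25.5 and 13.5) and the circadian and hypoxia repressor Bhlhe40 (38.1, 34.5 and 18.4). All lay within 0.0388 of the median, and with 2 differences and many genes near matches are common.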

How the data were processed

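RNA of 3 libraries, 1 per state, was sequenced as 50 bp single-end SOLiD reads of rRNA-depleted total RNA, per the labels' protocols. The deposited tables hold, per the file headers, read counts per gene in exons, introns, junctions and on the opposite strand, and an RPKM that the authors computed from exon reads and exon length. The submitters' processing notes name GRCm38. For aligner, counting tool and annotation: not given in the sources used here. RPKM followed from the exon counts with totals of 14118723, 15687239 and 18982195 reads (within 2% or 0.011 RPKM) for all members. For Rhob, Ier2 and Ier5 the deposited exon length (591, 666 and 927 bases) equals the coding length in GENCODE M21, so that their RPKM counts coding reads only.

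Coordinates, biotypes and transcripts came from GENCODE M21 (84.7% of IDs matched). Log2 differences used RPKM + 1. Intervals are exact Poisson or binomial (Clopper-Pearson) at 95% and cover counting error only, since PCR copies cannot be told from separate molecules. With 3 reads as the limit of a count of 0, the floor for 1 kb of exon was 0.158 to 0.212 RPKM. Members and gene lists were chosen with earlier results of these data known. Genes of the 9 lists were named when past the size rule at 5 RPKM or more, up to 3 per list and comparison. The values of 1 list are not reported here. Zfp36l1, Zfp36l2, Dusp6, Srf, Nab1, Mcl1, Myc, the unmeasured EGR and NR4A genes and the marker genes were named after their values were seen. Python 3.11.15, scipy 1.17.1 and pandas 2.3.3 were used, and the calculations were tested on simulated counts.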

Additional observations from a re-analysis of the deposited data

How the results depend on the processing

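No paired analysis was possible because each state was 1 library. Of 60 recomputed counts of members past the size rule 54 were equal to the main count or within 1.5 times of it. Most of the 60 had a main count of 0, for which only equality can be asked, so this number says little. Leaving out the minimum of 1 RPKM cannot change a count, since the log2 difference asked for already needs that level. With RPM over the gene total 1 member (Egr2, 20 against 4 reads) was lower at 6 h in place of 0. Over all genes tested with that setting 227 of 12340 were lower and 269 higher at 6 h. For reactivated against reactivating 3 members were lower in place of 1 with a pseudocount of 0.1, with RPM and with exon plus intron reads. Over all genes tested 1618 of 12065 were lower with that pseudocount and 1462 of 12612 with RPM, beside 920 of 12065 with the main rule. The share with exon plus intron reads was not counted. Relative to genes of like GC content, an alternative added after seeing the data, 1 member was lower at 12 h against dormant in place of 3. On that scale 1 (Dusp1) was higher against reactivating in place of 0, and the share over all genes was not counted either. Most of the 270 recomputed log2 differences of members were of genes that had not passed the rule, so their number says little. Those that had passed were Egr1, Rhob and Zfp36 at 12 h against dormant and Rhob against reactivating. Of these none changed sign, and 3 recomputed values no longer passed (Egr1 and Zfp36 relative to like GC content, Zfp36 with upper-quartile scaling). Settings that change only the minimum RPKM cannot alter a log2 difference. Of 189 recomputed list medians 175 moved by no more than the median half-width of the counting intervals of single genes in the list. That width is not an interval of the list median. Intron reads per exon read, pooled over the 7 members with an intron, changed by 1.24 times at 6 h, 0.952 times at 12 h and 0.770 times between them. Without Klf6, added after seeing the data, the values were 1.85 and 1.44 times at 6 h and 12 h. A different measure, intron reads per library total over all 7 members with Klf6 included, changed by 0.660 times at 12 h and 0.599 times between 6 h and 12 h. The cause of these shifts was not tested. Depth limits Egr2, Ier3 and Ier5, with at most 20 exon reads in a library.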
